A study of Rattus norvegicus with 49 samples.

Results

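The genes of the proteasome were followed in the liver of furan-treated rats. They were taken as all genes whose symbol begins with Psma, Psmb, Psmc, Psmd, Psme or Psmg and that a probe of the array named through its RefSeq transcript. This gave 45 of the 15154 genes named on the array, each read from its brightest probe, and all 45 passed the filter on dim probes. Of them, 43 code for subunits, activators or assembly chaperones. The other two, Psmc3ip and Psme3ip1, share the letters but code for partner proteins that are not subunits, and they are kept apart below. Psmd11, Psmg1, Psmg3 and Psmb11 belong to the complex and were not analysed here.

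Furan, a liver toxicant that forms in heated food, was given in corn oil by gavage to F344 rats, an inbred strain, on 5 days of each week for 90 days, beginning at 7 to 8 weeks of age. Males and females received 2, 0.5, 0.12 or 0.03 mg/kg, and corn oil alone (0 mg/kg) was the control of each sex. Each of the 10 groups had 5 arrays, 1 per rat, except the males at 0.03 mg/kg with 4. Whole frozen liver was used, so that all its cell types contributed. Every array set Cy5-labelled liver RNA against the same Cy3-labelled universal rat reference RNA, with no dye swap. On 48 arrays, 37.9% to 71.1% of the spots in the liver channel stood well above background. That share was 5.06% for male 26, given 0.03 mg/kg, whose array was left out of the values below. The arrays lay on 8 slides, and slide was a term of the model. Slides 5 and 6, where the share was 37.9% to 46%, held no control array. Control male 6, on slide 8, had a share of 45.5%. All 8 hepatocyte markers checked, among them Alb and Apoa1, were measured in the liver channel, and their mean log2 liver/reference ratio lay between 5.07 and 6.87 in control males and between 5.85 and 6.68 in control females.

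The proteasome is the barrel-shaped protease that degrades proteins tagged with ubiquitin. Its 20S core is built from outer rings of alpha subunits and inner rings of beta subunits, and Psmb5, Psmb6 and Psmb7 code for the catalytic ones. Interferon and other inflammatory signals replace these with Psmb8, Psmb9 and Psmb10, which gives the immunoproteasome that trims peptides for antigen presentation. The 19S cap recognises ubiquitin chains, and its ring of ATPases, coded by Psmc genes, unfolds the substrate. The 11S activators and PA200 open the core without ubiquitin, and Psmg genes code for chaperones that assemble the core. Liver relies on it for turnover of damaged proteins, and furan is known to become a reactive aldehyde in hepatocytes that binds proteins.

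The promoters of the members on which the results turn are shown first, as 300 bases from 250 before to 50 after the gene start, from RefSeq on the GRCr8 build. Of the 45 members 41 had a promoter entry, of which 39 belonged to subunits, activators or chaperones. Capitals mark the interferon-type core, which is GAAA, any 2 bases and GAAA again, on either strand. Overlap between the motifs searched was not considered. The sequences are given for the 3 immune catalytic subunits, which differed between the sexes, and for Psmg4, which changed most with furan.
Psmb8, chr20:4656982-4657281, minus strand: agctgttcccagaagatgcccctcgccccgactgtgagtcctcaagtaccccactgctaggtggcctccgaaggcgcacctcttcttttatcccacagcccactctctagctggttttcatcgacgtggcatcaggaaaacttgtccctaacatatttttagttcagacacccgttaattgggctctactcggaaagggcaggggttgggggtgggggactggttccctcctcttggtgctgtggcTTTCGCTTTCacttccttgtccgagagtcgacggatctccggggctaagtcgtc
Psmb9, chr20:4668750-4669049, plus strand: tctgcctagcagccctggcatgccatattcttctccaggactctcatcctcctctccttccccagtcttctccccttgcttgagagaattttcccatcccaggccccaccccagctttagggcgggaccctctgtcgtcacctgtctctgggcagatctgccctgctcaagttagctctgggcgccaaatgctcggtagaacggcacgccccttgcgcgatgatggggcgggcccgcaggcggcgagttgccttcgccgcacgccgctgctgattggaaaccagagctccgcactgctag
Psmb10, chr19:50743243-50743542, minus strand: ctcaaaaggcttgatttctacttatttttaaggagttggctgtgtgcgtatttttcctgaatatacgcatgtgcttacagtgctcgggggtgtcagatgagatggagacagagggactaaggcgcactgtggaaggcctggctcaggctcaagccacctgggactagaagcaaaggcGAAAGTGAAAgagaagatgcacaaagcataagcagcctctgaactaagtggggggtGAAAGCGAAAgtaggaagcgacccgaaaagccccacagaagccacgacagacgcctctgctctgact
Psmg4, chr17:30923324-30923623, minus strand: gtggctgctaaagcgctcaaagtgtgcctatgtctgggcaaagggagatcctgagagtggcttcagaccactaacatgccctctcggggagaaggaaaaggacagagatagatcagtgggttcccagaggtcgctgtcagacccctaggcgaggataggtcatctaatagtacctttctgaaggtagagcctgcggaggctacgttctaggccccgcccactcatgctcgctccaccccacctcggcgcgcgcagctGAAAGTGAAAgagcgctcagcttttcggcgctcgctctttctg
The interferon-type core was found in 7 of the 39 promoters (17.9%) and in 3.92% of all 33469 promoters of the same length. Psmb10 had 2 matches, and Psmb8, Psme2 and Psmg4 had 1 each, as did Psma4, Psmb3 and Psmd7. The GC box, GGGCGG, stood in 74.4% of the 39 and in 33.1% of all. CCAAT stood in 48.7% against 37.5%, and TGANNNNGC, the core of the antioxidant response element, in 53.8% against 40.5%. Such matches describe the letters of these windows and say nothing on binding.

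In males at 2 mg/kg, 5 of the 45 members rose and 3 fell. The assembly chaperone genes Psmg4 and Psmg2, the catalytic subunit gene Psmb5 and the ATPase genes Psmc1 and Psmc4 were higher than in control males. The ATPase gene Psmc6, the alpha ring gene Psma3 and the immune catalytic subunit gene Psmb8 were lower. The changes were small: the fold changes of the 8 lay between 1.19 and 1.55, and only Psmg4 passed 1.5-fold. A call means an adjusted p of at most 0.05 in limma over all 17661 probes tested. By the same rule 23.3% of all probes were called in this comparison, 12.4% higher and 10.9% lower, so that the members' count was not above the background. With median centring 81.3% of all calls were higher instead of 53.2%, and 6 members were called higher and 0 lower, with Psma3, Psmb8 and Psmc6 lower by -0.12, -0.12 and -0.32 without a call. The median change of the members was 0.07 on the log2 scale, beside -0.02 over all probes. In tissue RNA, fewer cells of a type and less RNA per cell cannot be told apart.

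**Figure D1:**
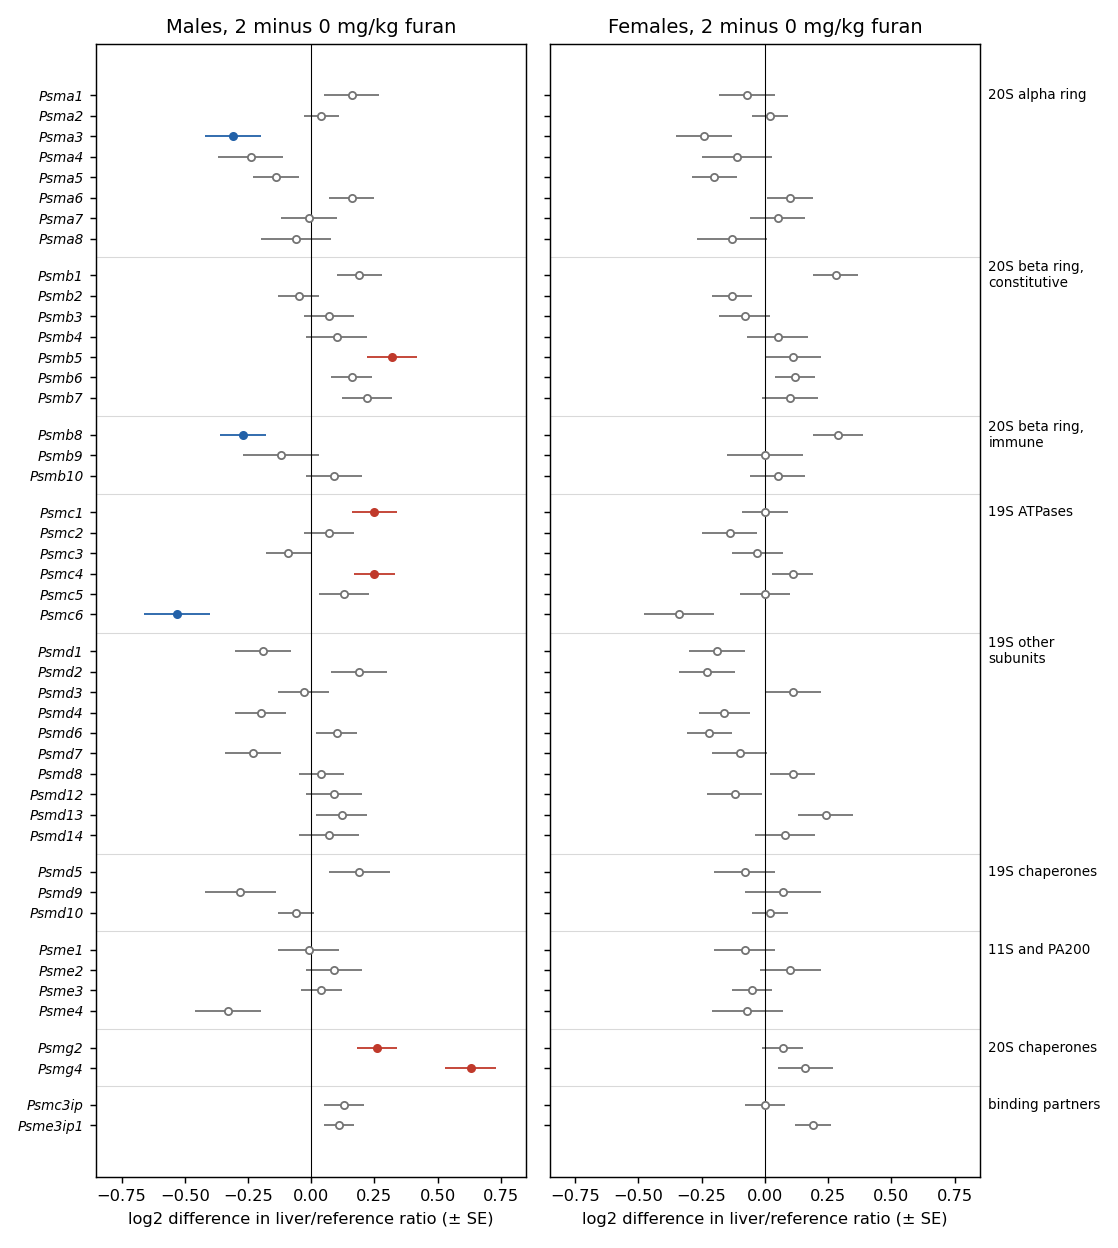
Log2 difference in liver/reference ratio between 2 and 0 mg/kg furan for the 45 members, grouped by role, in males (left) and females (right), with standard errors from the limma fit with slide as block. Filled points passed an adjusted p of 0.05, in red for higher and in blue for lower: 8 in males, from Psmg4 at 0.63 to Psmc6 at -0.53, and 0 in females.

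Psmg4, which codes for a chaperone that pairs with another in building the alpha ring, changed most. Its log2 liver/reference ratios were 0.42, 0.76, 0.41, 0.69 and 0.57 in the control males and 1.24, 1.28, 1.26, 0.94 and 1.16 in the 2 mg/kg males. All 5 treated animals lay above all 5 controls. The fitted log2 difference was 0.63 with a standard error of 0.10 (1.55-fold, limma adjusted p = 3.28e-05). Within the 3 slides that held both groups it was 0.48, 0.59 and 0.59. The other probe of the gene gave 0.61 (adjusted p = 1.58e-05). Its promoter, printed above, holds 1 match of the interferon-type core, 2 of TGANNNNGC and 1 of GGGCGG. Any link of these to furan was not tested. By dose, the male means were 0.57 ± 0.16 (SD, n = 5) at 0, 0.70 ± 0.19 (n = 3) at 0.03, 0.68 ± 0.13 (n = 5) at 0.12, 0.79 ± 0.16 (n = 5) at 0.5 and 1.18 ± 0.14 (n = 5) at 2 mg/kg. The 0.5 mg/kg difference of 0.29 did not pass the test (adjusted p = 0.248). In females the mean went from 0.70 ± 0.09 to 0.90 ± 0.17 (n = 5 each), a fitted difference of 0.16 with a standard error of 0.11 that was not called, and the other probe gave 0.30 (adjusted p = 0.0582). The male minus female difference of the effect was 0.47, with an adjusted p of 0.0706. Psmg2, the other chaperone gene of this group, read -0.17, -0.59, -0.50, -0.59 and -0.05 in control males and -0.34, -0.29, 0.33, 0.10 and 0.11 in treated males. These ranges overlapped, and the fitted rise of 0.26 (standard error 0.08, adjusted p = 0.0154) was 0.25, 0.30 and 0.16 within slides.

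Psmc6 codes for an ATPase of the 19S ring and was the member that fell most. Its log2 ratios were 1.49, 1.47, 1.45, 1.57 and 1.54 in control males and 1.20, 1.02, 1.15, 1.03 and 0.51 in treated males. The groups did not overlap, and animal 87 was the lowest. The fitted log2 difference was -0.53 with a standard error of 0.13 (1.44-fold, adjusted p = 0.00328). Within slides the differences were -0.27, -0.55 and -1.03. In females the controls read 1.56, 1.93, 1.94, 1.61 and 1.70 and the treated animals 1.48, 1.40, 1.47, 1.26 and 1.40. These also did not overlap, but the fitted difference of -0.34 with slide as block was not called (adjusted p = 0.119). The other ATPase genes did not move as one: Psmc1 and Psmc4 were called higher, by 0.25 each (adjusted p = 0.0306 and 0.0205), and Psmc2, Psmc3 and Psmc5 gave 0.07, -0.09 and 0.13. Psmc1 read 0.19, 0.15, 0.18, -0.04 and -0.04 in control males and 0.16, 0.22, 0.14, 0.66 and 0.57 in treated males, so that its ranges overlapped. Psmc4 read 0.31, 0.18, 0.48, 0.36 and 0.12 against 0.41, 0.51, 0.33, 0.83 and 0.61, which overlapped as well. The highest values of both came from animals 83 and 87.

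In the core, 1 of 7 constitutive beta genes was called higher in males, and 1 of 8 alpha genes lower. Psmb5, which codes for the chymotrypsin-like catalytic subunit, read 0.72, 0.82, 1.09, 0.74 and 0.36 in control males and 0.86, 0.97, 0.48, 1.34 and 1.18 in treated males. The ranges overlapped widely, and the fitted rise of 0.32 (standard error 0.10, adjusted p = 0.0205) was 0.04, 0.23 and 0.83 within slides. Psma3, of the alpha ring, read 1.48, 1.90, 1.5, 1.89 and 1.11 in controls against 1.81, 1.32, 1.15, 0.54 and 0.59. It also overlapped, with a fitted difference of -0.31 (standard error 0.11, adjusted p = 0.0285). Psmb1, the noncatalytic beta gene with the next smallest p of those that missed the threshold upward, gave 0.19. Psmb6 and Psmb7, for the other constitutive catalytic subunits, gave 0.16 and 0.22 (adjusted p = 0.145 and 0.124). None of the 10 other subunit genes of the 19S cap was called in males, with values from -0.23 to 0.19. None of the 3 genes for its assembly chaperones was called either, nor the 4 activator genes. Psme1 and Psme2, the interferon-inducible 11S pair, gave -0.01 and 0.09, and Psme3, its nuclear relative, 0.04. Psme4, which codes for PA200, gave -0.33 by its brightest probe (adjusted p = 0.0721) and -0.50 by its other probe (adjusted p = 0.000129), so that the probes of this gene fell on different sides of the threshold. The partner genes Psmc3ip and Psme3ip1 gave 0.13 and 0.11 and were not called.

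**Figure D2:**
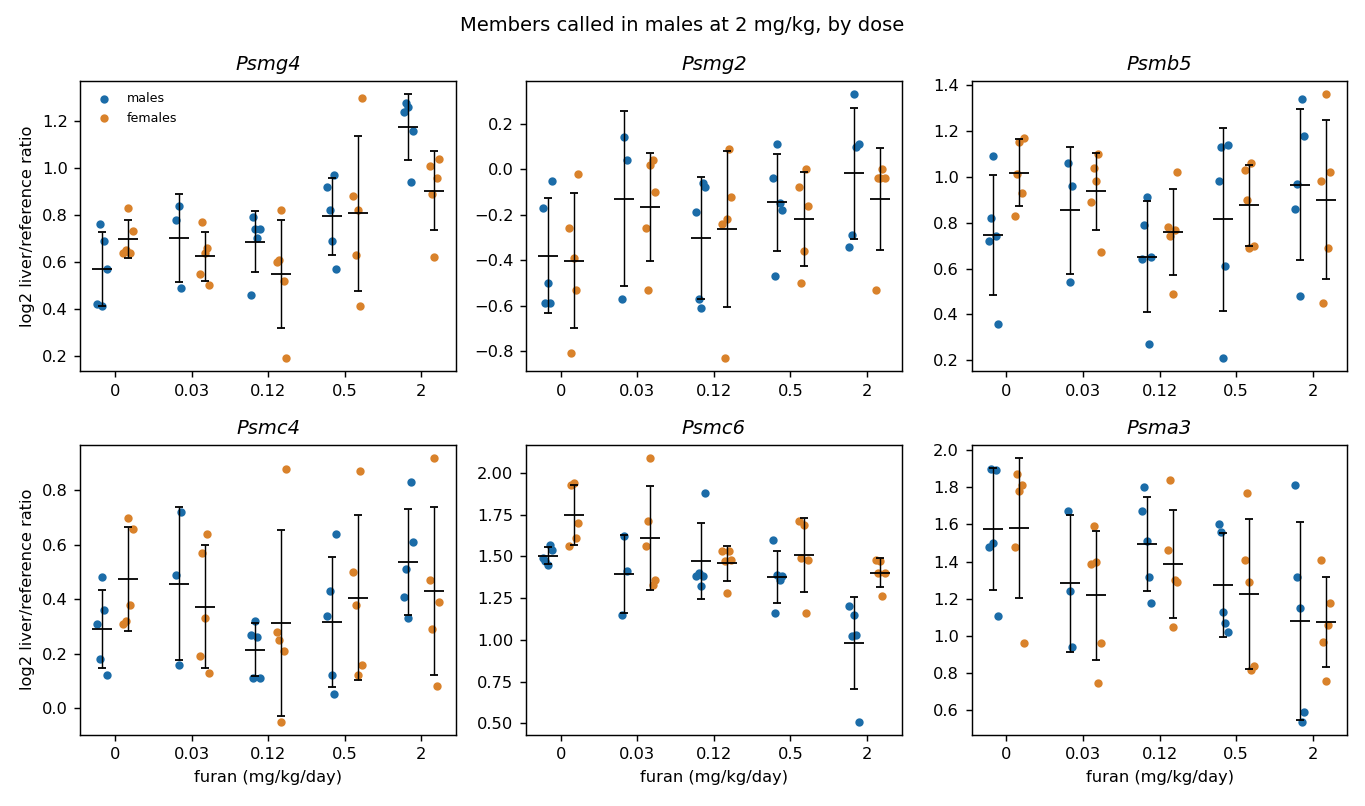
Log2 liver/reference ratio of each animal for 6 of the 8 members called in males at 2 mg/kg, by furan dose in mg/kg/day, with males in blue and females in orange. Bars are the group mean and SD without slide adjustment (n = 5, and 3 males at 0.03 mg/kg). Psmg4 in the 2 mg/kg males, at 0.94 to 1.28, and Psmc6, at 0.51 to 1.20, lie outside the range of the control males, and the other 4 genes overlap with it.

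In females at 2 mg/kg, 0 of the 45 members were called by their brightest probe, where limma called 5.98% of all probes. The other probe of Psme4 was called lower, at -0.33 (limma adjusted p = 0.034), while its brightest probe gave -0.07. At an unadjusted p under 0.05 there were 9 members, and 4236 of all 17661 probes. The median change of the members was 0.00, beside 0.01 for all probes. The smallest p values upward were those of Psmb1, Psmb8 and Psme3ip1. Psmb1 read 0.19, 0.02, 0.12, -0.32 and 0.37 in control females and 0.25, 0.43, 0.51, 0.44 and 0.61 in treated ones, an overlap of the highest control with the lowest treated animal, with a fitted 0.28 (standard error 0.09, adjusted p = 0.0572). Psme3ip1 gave 0.19 (adjusted p = 0.0775). Downward they were Psmc6, described above, Psmd6 of the 19S lid at -0.22 (adjusted p = 0.125) and Psma5 of the alpha ring at -0.20 (adjusted p = 0.17). Psmd6 read 0.69, 0.72, 0.70, 0.96 and 0.41 in controls and 0.50, 0.41, 0.09, 0.25 and 0.46 in treated females, of which 3 lay below all controls. Psma5 read 0.35, 0.84, 0.26, 0.17 and 0.38 against 0.41, 0.38, 0.18, 0.08 and 0.43, which overlapped.

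At the lower doses 0 members were called in either sex. In males, limma called 0% of all probes at 0.03, 0.561% at 0.12 and 0.606% at 0.5 mg/kg, and in females 0.0226%, 0.017% and 0.0453%. At an unadjusted p under 0.05 there were 1, 0 and 1 members in males and 1, 1 and 7 in females, and 728, 1154 and 1983 of the 17661 probes in males and 1142, 1493 and 2688 in females. The member nearest to a call was Psmb8 in females at 0.5 mg/kg, with a difference of 0.42 (standard error 0.09, adjusted p = 0.0544).

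Psmb8, which codes for the immune form of the chymotrypsin-like subunit, was the member called in the test of a sex difference of effect at 2 mg/kg, a call that did not hold under every setting. In males its log2 ratios were 0.86, 0.72, 0.99, 0.92 and 0.76 without furan and 0.52, 0.43, 0.50, 0.66 and 0.61 at 2 mg/kg. The groups did not overlap, and the fitted difference was -0.27 (standard error 0.09, adjusted p = 0.0294). Within slides it was -0.20, -0.50 and -0.15. In females they were 1.26, 0.88, 1.28, 0.88 and 1.60 without furan and 1.21, 1.18, 1.64, 1.17 and 1.58 with it. These overlapped, and the fitted 0.29 (standard error 0.10, adjusted p = 0.0602) was 0.33 and 0.04 within the slides that held both groups. The male effect minus the female effect was -0.57 (standard error 0.13, limma adjusted p = 0.0236), where 1.85% of all probes were called. It was the 1 member of 45 called in this test. The call was lost in 5 of 10 alternatives, among them the fit with no slide block (-0.48, adjusted p = 0.787) and median centring in place of loess (-0.34, adjusted p = 0.283). The other immune catalytic genes, Psmb9 and Psmb10, gave -0.12 and 0.09 in males and 0.00 and 0.05 in females. Tap1, for the peptide transporter of antigen presentation, had a male minus female difference of effect of -0.56 that was not called (adjusted p = 0.0632).

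**Figure D3:**
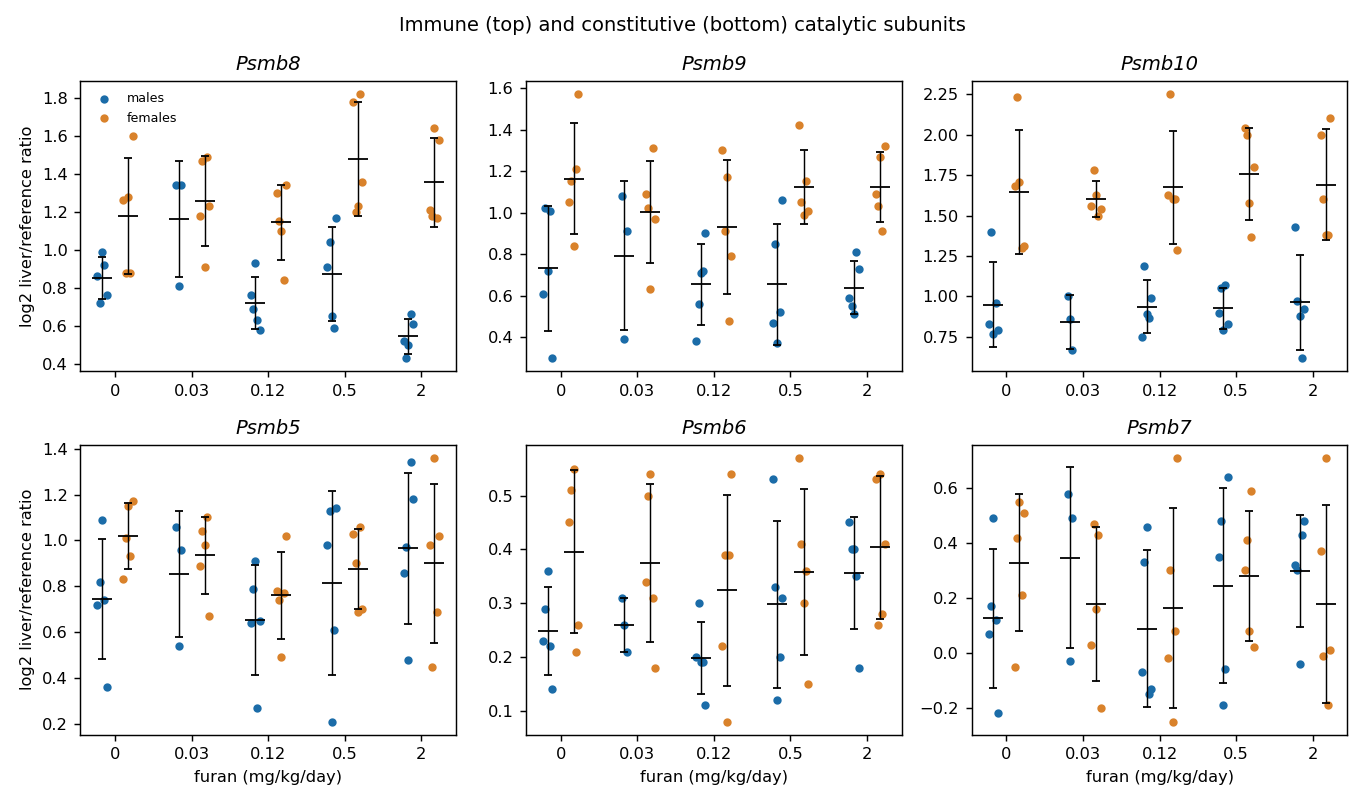
Log2 liver/reference ratio of each animal for the immune catalytic subunits Psmb8, Psmb9 and Psmb10 and their constitutive counterparts Psmb5, Psmb6 and Psmb7, by furan dose in mg/kg/day, with males in blue and females in orange. Bars are the group mean and SD without slide adjustment (n = 5, and 3 males at 0.03 mg/kg). Male means of Psmb10 stay between 0.84 and 0.96 and female means between 1.60 and 1.76, and Psmb8 in the 2 mg/kg males lies at 0.43 to 0.66.

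Between control males and control females, 7 of the 45 members differed, and all 7 were lower in males. They were the 3 immune catalytic genes Psmb8, Psmb9 and Psmb10, the beta ring genes Psmb2 and Psmb3, Psma5 of the alpha ring and Psmd6 of the 19S lid. Of all probes, 21.7% were called, 11.4% higher and 10.3% lower in males. The median of the members was -0.13, beside 0.02 for all probes. The scaling of the arrays mattered here: with median centring in place of loess, 31 members were called lower and 0 higher in control males, the median of all probes was -0.15, that of the members -0.46, and 14.3% of all calls were higher in males instead of 52.5%. Psmb10, for the immune trypsin-like subunit, differed most. It read 0.83, 1.40, 0.77, 0.96 and 0.79 in control males and 1.68, 2.23, 1.71, 1.30 and 1.31 in control females. Of the males 4 lay below all females, and the fitted male minus female difference was -0.76 (standard error 0.10, 1.69-fold, adjusted p = 7.5e-07). Within the 4 slides with both groups it was -0.85, -0.83, -0.94 and -0.34. Psmb9, for the immune counterpart of the Psmb6 subunit, read 0.61, 1.02, 0.72, 1.01 and 0.30 against 1.05, 1.15, 0.84, 1.21 and 1.57, an overlap. Its difference was -0.39 (standard error 0.14, adjusted p = 0.0435). Psmb8 differed by -0.27 (standard error 0.09, adjusted p = 0.0309), and its values are given above. Within slides Psmb9 differed by -0.44, -0.12, -0.13 and -0.20, and Psmb8 by -0.41, -0.15, -0.29 and 0.05. The remaining 4 differed by -0.24 to -0.30. The constitutive catalytic genes were not called, with -0.19 for Psmb5 (adjusted p = 0.165), -0.12 for Psmb6 and -0.08 for Psmb7, and Psme1 and Psme2 gave -0.19 each (adjusted p = 0.246 and 0.235).

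The treated animals, which share no arrays with the controls but the slide terms of the fit, allowed the same comparison at 4 doses. Averaged over the 4 doses, Psmb10 was lower in males by -0.74 (standard error 0.05, adjusted p = 1.08e-13), Psmb8 by -0.49 (standard error 0.05, adjusted p = 1.47e-10) and Psmb9 by -0.36 (standard error 0.07, adjusted p = 0.000189). Of the 45 members 14 were called lower and 4 higher in treated males, where 41.1% of all probes were called, 17.8% lower and 23.4% higher. By dose, the male minus female difference of Psmb10 was -0.71 at 0.03, -0.81 at 0.12, -0.72 at 0.5 and -0.72 at 2 mg/kg. That of Psmb8 was -0.05, -0.44, -0.64 and -0.83, beside -0.27 in controls. Its value at 0.03 mg/kg rests on 3 male arrays, with a male mean of 1.16 ± 0.31 (SD). Against control males that was a difference of 0.34 (limma unadjusted p = 0.00425), which was not called. Psmd9, for a chaperone of the 19S base, was lower in treated males by -0.47 (adjusted p = 3.5e-06), and gave -0.33 in controls, where it was not called (adjusted p = 0.088). Its other probe gave -0.25 in controls.

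**Figure D4:**
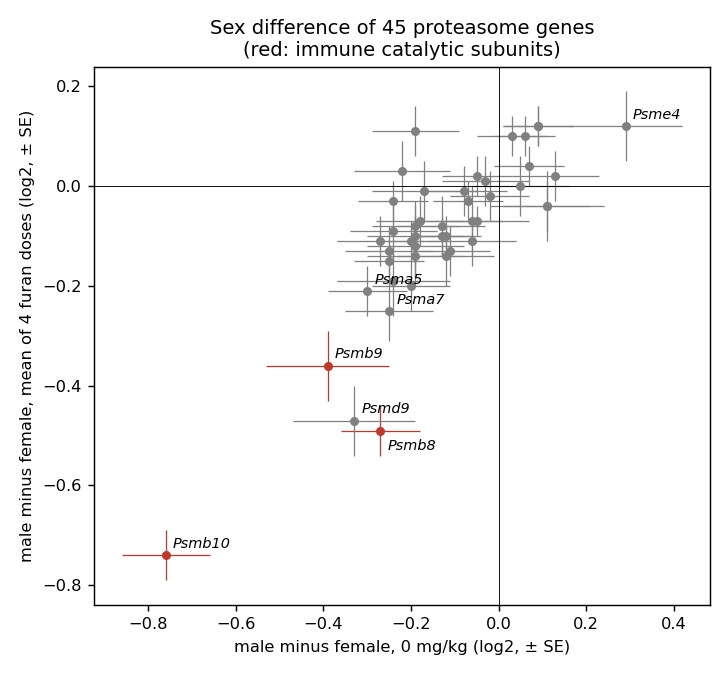
Male minus female log2 difference of the 45 members in control rats (horizontal axis) and averaged over the 4 furan doses (vertical axis), with standard errors from the limma fit with slide as block. The immune catalytic subunits, in red, lie at -0.76 and -0.74 for Psmb10, -0.39 and -0.36 for Psmb9, and -0.27 and -0.49 for Psmb8.

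Markers of other cell types moved in the same comparisons. Of all probes, 21.7% were called between the control sexes, 11.4% higher and 10.3% lower in males. At 2 mg/kg 23.3% were called in males and 5.98% in females, and the marker counts are to be read against these shares. In control males against control females, 3 of 8 macrophage markers were lower, Adgre1, Cd68 and Csf1r, and 2 of 3 neutrophil markers tested, S100a9 and Camp. Another 3 of the 8 macrophage markers had a difference above 0, without a call. Without slide adjustment, the mean log2 ratio of the macrophage list ran from 2.31 to 4.03 (median 3.94) in control males. In control females it ran from 3.61 to 4.03 (median 4.01). That of the neutrophil list ran from 0.14 to 1.18 (median 0.53) in control males and from 0.95 to 1.43 (median 1.07) in control females. Of the 12 genes tested for antigen processing and interferon, 2 were called, both lower in control males, beside 21.7% of all probes called. These were Irf1, an interferon-responsive regulator of immunoproteasome genes, at -0.74 (limma adjusted p = 0.000798), and Tapbp, for tapasin, at -0.40 (adjusted p = 1.45e-05). A link of either to the members was not tested. Of the T and NK cell markers, Cd3e, Cd2 and Klrd1 were not well above background, and 0 of the 5 tested were called. Of the remaining lists, 2 of 8 hepatocyte, 2 of 2 proliferation, 1 of 1 B cell and 1 of 5 stellate cell markers were higher in control males, 1 of 3 endothelial and 1 of 3 erythroid markers were lower, and 0 of 4 bile duct markers were called. At 2 mg/kg in males, 5 of 8 hepatocyte markers and 3 of 8 macrophage markers were lower, and 3 of 4 bile duct markers were higher. Without slide adjustment, the mean of the bile duct list ran from -2.45 to -1.79 in control males and from -2.06 to -0.64 in treated males. That of the hepatocyte list ran from 5.07 to 6.87 and from 4.64 to 6.19. The unadjusted hepatocyte mean ran from 5.85 to 6.68 in control females and from 4.88 to 6.44 in females at 2 mg/kg. With slide as block, the median change of the 8 hepatocyte markers at 2 mg/kg was 0.01 in females, with 4 above 0. In males it was -0.46, with 0 above 0. In females at 2 mg/kg, 0 of 8 hepatocyte markers, 1 of 8 macrophage markers and 1 of 4 bile duct markers were called. Of the other lists, 1 of 5 stellate cell markers was higher and 2 of 3 erythroid markers were lower in males at 2 mg/kg, and 1 of 5 T and NK cell markers was lower in females. Their part in the results on the members was not tested.

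The liver/reference ratio also placed the members by their level in liver relative to the universal reference RNA. It was averaged over the 48 arrays, with control and treated rats of both sexes. Liver was always in Cy5, so that a dye effect of a probe and its level in liver cannot be told apart. The median over the 45 was 0.36 on the log2 scale and 0.10 over all probes tested, and 37 of 45 were above 0. Psmc6 was highest at 1.45, followed, with no test between neighbours, by Psme1 at 1.33, Psmb10 and Psma3 at 1.32, Psme4 at 1.15 and Psme2 at 1.14. The 3 immune catalytic genes had a median of 1.05, against 0.32 for the 7 constitutive beta genes and 0.32 for the ATPases. The 19S subunit genes Psmd13 and Psmd14 stood at -0.46 and -0.40, and Psmc3ip was lowest at -1.13. Psma8, a testis form of the alpha ring, was well above background on 22 of the 48 arrays, and 42 of the 45 members on all of them. None of the members was saturated on any array. RefSeq lists 52 further loci named as pseudogenes of, or as like, 19 of the members, and whether their transcripts reach these probes was not tested.

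Among themselves the members varied together. After the group and slide means were removed, the 30 constitutive 20S and 19S genes correlated over the 48 arrays with a median pairwise r of 0.49, from -0.22 to 0.88, and the 5 interferon-inducible genes, Psmb8, Psmb9, Psmb10, Psme1 and Psme2, with a median of 0.50. Between these sets the median was 0.23, and over all 9849 named genes tested it was 0.01. The closest pairs were Psmb5 with Psmc1 at 0.88 and Psmd12 with Psmd2 at 0.87, and among the inducible genes Psmb9 with Psme2 at 0.82. The points share their array, dye and labelling, and the values are a description. The residual SD of the members had a median of 0.16, from 0.09 to 0.23, beside 0.17 over all probes.

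The pathway around the proteasome was followed in 6 lists of genes with known roles. Of all probes, 23.3% were called in males and 5.98% in females at 2 mg/kg, which the counts below are to be read against. Of 13 genes tested for ubiquitin and its activation, 2 were higher and 2 lower in males at 2 mg/kg, with values from -0.91 to 0.35. In females 0 were higher and 2 lower, with values from -0.93 to 0.22. Among the called genes, Ube2k, for a ubiquitin conjugating enzyme, fell by -0.50 (adjusted p = 0.000132) in males and by -0.31 (adjusted p = 0.0458) in females. Ube2d3, for another such enzyme, rose by 0.23 (adjusted p = 0.0273) in males. Of 17 genes for shuttling and for extraction by p97, 1 was higher and 5 were lower in males: Herpud1, of endoplasmic reticulum degradation, rose by 0.93, and Sel1l and Derl1, of the same route, fell by -0.67 and -0.51, as did Ufd1 by -0.39. In females, Ubxn1 and Ubqln4 rose by 0.38 and 0.26 and Ubqln2 fell by -0.45. Of 11 heat shock genes 4 rose in males and 0 in females, namely Hspb1 by 1.04, Hsp90ab1 by 0.45, Hsf1 by 0.35 and Dnaja1 by 0.25. Of the 8 proteasome partner genes tested, Zfand2a rose by 0.75 in males, and 0 were called in females. Of the 6 regulators tested, Stat3 rose by 0.45 and Nfyb fell by -0.43 in males, and 0 were called in females. Nfe2l1, for the factor that raises proteasome genes when the proteasome is inhibited, was not called in either sex at 2 mg/kg and was lower in control males than in control females by -0.40 (adjusted p = 0.00324). At the lower doses, Herpud1 rose in males by 1.35 at 0.12 mg/kg (adjusted p = 0.0249) and by 1.41 at 0.5 mg/kg (adjusted p = 0.0268). Nfe2l2, for a regulator of the oxidative stress response, fell by -0.69 in males at 0.12 mg/kg (adjusted p = 0.0285), and Ubxn1 rose by 0.43 in females at 0.5 mg/kg (adjusted p = 0.0344). In the ubiquitin list, 1 of 13 genes was called lower in males at 0.12 mg/kg, where the lowest value was -0.91.

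The calls differ in how far they rest on single animals. Without control male 5, 4 members remained called in males at 2 mg/kg, which were Psmc4, Psmc6, Psmg2 and Psmg4, and without treated male 87 there were 5, of which Psmd4 was not among the 8. Psmg4, Psmg2 and Psmc6 remained called whichever animal was left out. With the dim array of male 26 included, Psma3 (-0.32, adjusted p = 0.0922) and Psmb8 (-0.28, adjusted p = 0.135) were not called in males, and the call of the sex difference of effect of Psmb8 was lost (-0.62, adjusted p = 0.103). Psmb8's sex difference of effect lost its call without control female 11 (-0.49, adjusted p = 0.053). With no slide term, Psmg4 and Psmc6 remained of the 8 in males, and Psmb10 of the 7 between the control sexes.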

How the data were processed

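Liver RNA was hybridised to 49 Agilent 2-colour arrays, Cy5 against a Cy3 universal reference, 1 array per animal, grouped by sex and dose from the labels. The deposited scanner files, read with Agilent Feature Extraction 10.7.3.1 per the file headers, hold the median pixel intensity of each spot and of its background, a log10 ratio of liver over reference and marks of spot quality as a score of 0 or 1. The matrix deposited for the whole series gives, as a log2 ratio, values that the authors normalised, and 0 of its columns were left out. Of its 49 columns, 7 matched the array of their own name best and 41 another array of the same group, so it was used by group only.

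Intensities were corrected by normexp with an offset of 50, normalised by loess within arrays, and averaged per probe after outlier spots were left out (limma 3.58.1 and R 4.3.3, with files read by version 1.17.8 of data.table). Figures used Python and matplotlib. Testing was limited to the 17661 of 30367 probes whose liver signal exceeded background well on 4 or more arrays of any group. RefSeq of GRCr8 named 18004 probes, and it served for names only. The brightest probe had the highest mean liver signal. The limma fit had 1 mean per group and slide as a fixed block, 2-sided, with Benjamini-Hochberg adjustment over all probes within a comparison. Probes were called at 0.05 without a fold limit. The number of arrays limits the precision.

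The members and the gene and marker lists were chosen with earlier results of these data known. Values were given for the members called and the 3 with the smallest p in each direction, the catalytic and 11S genes, and up to 3 called genes per direction and pathway list, of which some are not reported here. The sex difference in treated animals, promoters and correlations were added after the data were seen. The alternatives were no slide block, a random slide block, all 49 arrays, median centring, the log ratio of the scanner, the series matrix, no filter, array weights, the mean over probes, a fold limit of 1.5 and leaving out each animal. The fit was tested on simulated data.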

Additional observations from a re-analysis of the deposited data

Results flagged for a closer look

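The log2 ratio of Psmc6 in treated male 87 was 0.51, while the other 4 males at 2 mg/kg lay between 1.02 and 1.20. Its gap was 0.738 of the range of the group. This was the 1 such gap in 30 pairs of member and group looked at, where chance gives about 1 in 20. The ratios were not adjusted for slide. Slide 8, with male 87 and control male 6, also gave the largest within-slide male difference of Psmb5 (0.83), Psmc1 (0.61) and Psmc4 (0.49). It did not for Psmg2 (0.16), Psma3 (-0.52) and Psmb8 (-0.15), and for Psmg4 it equalled slide 4 (0.59). With 1 animal left out at a time, the male difference of Psmc6 lay between -0.57 and -0.40 and remained called each time.

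The effect of 2 mg/kg furan on Psmb8 differed between the sexes by the interaction test, with a male minus female log2 difference of -0.57 (limma adjusted p = 0.0236). Over the 10 alternatives, it lay between -0.62 and -0.34, and its adjusted p between 0.00826 and 0.997.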

How the results depend on the processing

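With no slide block, 2 members were called in males at 2 mg/kg (Psmg4 and Psmc6), 0 in the interaction and 1 between the control sexes (Psmb10), and the median of the members in females was -0.12. The series matrix of the authors, with no slide block and all columns, an alternative added after seeing the data, gave the same counts of 2, 0 and 1. The planned fit of the matrix with slide was not run, because the slide of a column is not known. With slide as a random block (consensus correlation 0.60), 1 member was called in females at 2 mg/kg (Psmb1) and 1 at their lower doses (Psmb8 at 0.5 mg/kg). With the scanner log ratio these were 1 (Psmb8) and 1 (Psmb8 at 0.5 mg/kg), with 3 between the control sexes. With all 49 arrays there were 0 in the interaction and 3 between the control sexes. No slide block with all 49 arrays, also added later, gave 0 in the interaction. Array weights gave 3 members in females at 2 mg/kg, 1 at their lower doses, 2 in the interaction and 13 between the control sexes. With the fold limit of 1.5 there were 1 in males (Psmg4), 0 in the interaction and 1 between the control sexes (Psmb10). Median centring gave 0 in the interaction, a male median of 0.20, beside 0.08 for all probes, and 31 members lower in control males. It moved the median sex difference of all probes from 0.02 to -0.15 and the share of calls that were higher in males from 52.5% to 14.3%, and at 2 mg/kg in males from 53.2% to 81.3%. In females at 2 mg/kg that share went from 56.6% to 28.9%, and with the series matrix it was 44.3%, with 67.1% in males and 38.2% between the control sexes. The cause of these changes was not tested.

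Leaving out 1 animal at a time gave 4 to 9 members in males at 2 mg/kg, 0 to 2 in females, 0 at the lower male doses, 0 to 1 at the lower female doses (Psmb8 at 0.5 mg/kg), 0 to 1 in the interaction and 2 to 8 between the control sexes. The last fell to 2 without control female 11, to 4 without control females 9 or 4 and to 3 without control males 3, 4 or 6. In females at 2 mg/kg, Psmb1 and Psmb8 were called without control female 4, and Psmb8 without treated female 82. The median of the members lay between 0.02 and 0.10 in males and between -0.03 and 0.03 in females. Psmg4 in males (0.61 to 0.81, adjusted p from 6.63e-06 to 0.00108) and Psmb10 between the control sexes (-1.07 to -0.64, adjusted p from 4.63e-09 to 0.00665) remained called under all 9 alternatives. Psmc6 lost its call in 1 of 9 (median centring, -0.32). No sign of a called member was reversed. No paired analysis was possible because the replicate numbers name different animals, so that no number pairs animals across groups.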
